A study of Mus musculus with 19 samples.

Results

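Mouse genes with the symbol Zfp followed by a number were examined in A223, a mouse tumour model of squamous cell carcinoma. A gene was a member if the exome carried at least 1 genotype call at a missense or a synonymous position in it. The choice gave 88 of the 4270 genes with such a call, and 543 of 20424 coding calls. The study as a whole compared T cells of mice with regressing and with growing A223 tumours. Only its 2 libraries of the tumour cells themselves bear on these genes, 1 of exome DNA and 1 of polyA RNA. Both came from A223 cells grown in culture and labelled as C57BL/6-derived; no treatment is named. With 1 library of each kind there was no replicate, and no test between groups could be made. Shares carry exact Clopper-Pearson 95% intervals, which cover counting error only, and neighbouring calls lie on shared haplotypes and are not independent. No normal tissue entered the calls used here, so inherited and acquired changes cannot be told apart.

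Most Zfp genes encode proteins with an array of C2H2 zinc fingers. Each finger is a short loop in which a pair of cysteines and a pair of histidines hold a zinc ion, and a helix whose exposed residues read DNA bases. A conserved linker joins each finger to the next. Many of these proteins also carry a KRAB domain, which binds the co-repressor Trim28 and directs silencing chromatin to transposable elements and some genes. KRAB zinc finger genes arise by tandem duplication, sit in chromosomal clusters and differ among mouse strains. Not every gene of this name is of that kind: Zfp185, for example, encodes a LIM domain protein.

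The sequences that show the repeat unit most directly came from the exome. An insertion in Zfp457 and a deletion in Zfp759, both in 1 cluster on chromosome 13, each measured 84 bases. That is 28 codons and the length of 1 finger with its linker. Both are printed on the coding strand, turned to start at the codon of a finger's last zinc-binding residue. Capitals mark codons for cysteine and histidine.

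Zfp457 insertion: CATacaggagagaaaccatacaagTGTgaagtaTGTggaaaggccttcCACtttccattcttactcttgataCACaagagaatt
Zfp759 deletion: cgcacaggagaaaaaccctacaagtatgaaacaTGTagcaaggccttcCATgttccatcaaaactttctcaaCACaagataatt

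The Zfp457 insertion was called homozygous after position 67293113 of chromosome 13, following residue 465 on the minus strand. It holds a full set of finger residues: the opening histidine, the linker, a cysteine pair and the closing histidine, plus 1 more histidine between them. The RNA had 0 reads there, so the inserted finger was not seen in transcripts. The Zfp759 deletion was called heterozygous at positions 67138771 to 67138854 of chromosome 13, plus strand, with 2 RNA reads and no RNA genotype. The deleted finger was not a complete one. Its first cysteine place holds a tyrosine codon and its last histidine place an arginine codon, leaving 3 cysteine or histidine codons. That arginine is residue 156, and a second heterozygous call, p.Arg156His at position 67138853, lies within the deleted bases. Its RNA genotype was homozygous at 6 reads. The inserted and deleted units shared 63 of 84 bases (75%) and 18 of 28 encoded residues.

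The missense calls of Zfp457 were placed within the same 28-residue repeat, counted from the insertion. From residue 100 on, a start chosen after the calls were seen, the exome held 13 missense and 8 synonymous calls. Of the 28 places of the repeat, 4 are helix places that contact bases, 5 are linker and 4 bind zinc. Of the 13 missense calls, 4 fell at the helix places that contact bases (p.Ser150Pro, p.Tyr400Asp, p.Ile512Leu and p.Ile602Met), and 5 fell in the linker. Whether these few calls favour any place was not tested. A zinc-binding place held 1 missense call, where p.Asn463His replaced an asparagine by the histidine that the finger pattern asks for. In 4 missense calls the new residue was that of the inserted finger, in 5 the replaced residue was, and in 4 neither was. Of 8 synonymous calls, 2 fell at helix places and 2 in the linker. Of the 7 linker residues called, 5 were the same as in the inserted finger. The 2 calls before residue 100 that the same counting would put in a linker, at Asp20 and Gln22, were not. No protein sequence of Zfp457 was used.

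**Figure D1:**
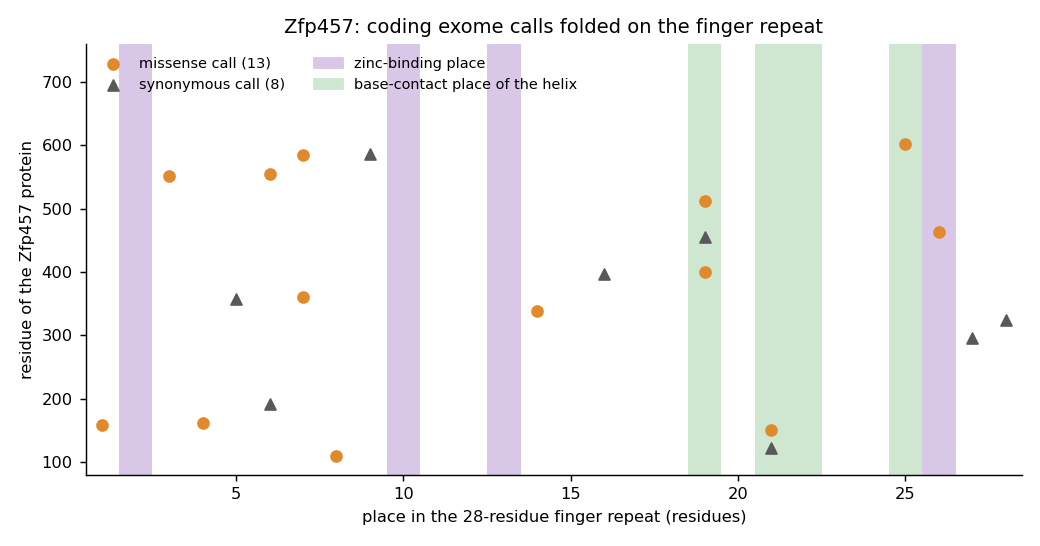
Coding exome calls of Zfp457 from residue 100 on, with place in the 28-residue finger repeat on the x axis and residue number on the y axis. Circles are the 13 missense and triangles the 8 synonymous calls; 4 missense calls lie in the bands for helix places that contact bases and 1 in a band for zinc binding.

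Missense calls were almost as many as synonymous calls in the Zfp genes. The exome held 269 missense and 274 synonymous calls, a ratio of 0.98, or 49.5% missense (interval 45.3 to 53.8). All other genes held 7653 missense among 19881 calls, a background of 38.5% (37.8 to 39.2) and a ratio of 0.63. Other C2H2 families (Zbtb, Zkscan, Zscan, Klf and the like) had 27 missense among 94 calls in 18 genes, or 28.7% (19.9 to 39.0). Olfactory receptor genes, another large clustered family, had 417 among 1021 calls, or 40.8% (37.8 to 43.9). The intervals of the Zfp genes and of these 3 sets do not overlap, but they treat linked calls as independent and are too narrow for that reason. Genes of other names inside the spans of the Zfp clusters had 75 missense among 154 calls in 23 genes, or 48.7% (40.6 to 56.9). That pooled share hides opposite values. In the first cluster of chromosome 7 described below, other genes had 9 missense among 30 calls, against 88 among 166 in its Zfp genes. On chromosomes 5 and 6 they had 23 among 38 and 16 among 23, against 3 among 12 and 6 among 17 in the Zfp genes there. In the chromosome 13 cluster the counts were 27 among 59 and 67 among 125. The missense share was 50.7% (45.4 to 56.0) in clustered Zfp genes and 47.3% (40.0 to 54.7) in those outside clusters. It was 49.9% (44.4 to 55.3) among homozygous and 49.0% (42.0 to 56.1) among heterozygous Zfp calls.

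**Figure D2:**
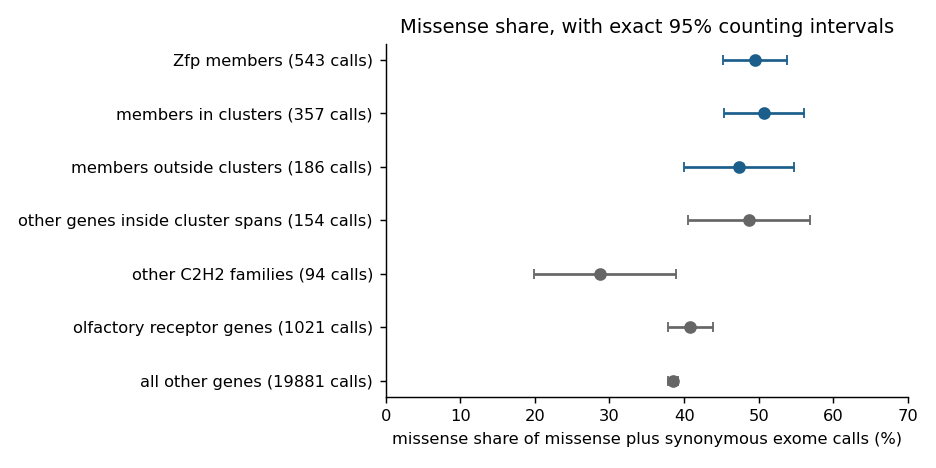
Missense share of missense plus synonymous exome calls (x axis, percent) for 7 sets of genes, with the number of calls in parentheses; bars are exact 95% intervals for counting error. The Zfp members lie at 49.5% and all other genes at 38.5%, while other genes inside the Zfp cluster spans lie at 48.7%.

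Members differed widely among themselves. The number of calls per gene ran from 1 to 32 with a median of 4, against a median of 2 in other genes. Calls per 100 residues of protein had a median of 0.69 in the Zfp genes and 0.58 in the others. In 15 members with 10 or more calls lay 288 of the 543 calls, and 15 members had a single call. Missense calls outnumbered synonymous ones in 30 members, were fewer in 42 and equal in 16, and 20 members had none. The 10 members with the most missense calls were Zfp457 (19 of 28 calls), Zfp112 and Zfp93 (16 of 29 and 16 of 32), Zfp108 (15 of 22), Zfp180 (13 of 23), Zfp39 (12 of 18), Zfp458 (11 of 19), Zfp109 (11 of 17), Zfp658 (10 of 14) and Zfp318 (10 of 15). All but Zfp39, Zfp658 and Zfp318 belong to a cluster on chromosome 7 or 13. At the other end, Zfp87 had 0 missense among 7 calls, Zfp74 had 0 among 5, and Zfp609, Zfp68 and Zfp94 had 0 among 4, 4 and 2.

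Cysteine and histidine, the residues that hold zinc, were replaced in 24 of 269 missense calls (8.92%, interval 5.80 to 13.0), spread over 17 genes. The same residues were replaced in 5.02% (4.54 to 5.53) of missense calls in other genes. Synonymous calls fell on them at like shares, 8.03% (5.10 to 11.9) in Zfp genes and 5.28% (4.89 to 5.69) in others. Of the 24 calls, 16 were homozygous. Zfp112 had 4 of them (p.Cys114Gly, p.Cys215Arg, p.Cys339Ser and p.Cys377Arg), all homozygous. Calls also created these residues: 25 of 269 missense calls led to cysteine or histidine (9.29%, 6.10 to 13.4), against 6.10% (5.58 to 6.66) in other genes. Which of these residues bind zinc was not determined, since no protein sequence was used.

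The members were spread unevenly over the genome. RefSeq annotates 367 protein-coding genes of this name pattern, and 87 of them (23.7%) held a coding call; 1 member, Zfp607, was not matched. Among other annotated protein-coding genes the share was 18.2%. Chromosome 13 had 21 of its 32 annotated Zfp genes among the members (65.6%, against 23.2% of its other genes) and chromosome 7 had 25 of 90 (27.8%, against 19.1%). On chromosome 17 it was 1 of 41 (2.44%, against 12.9%), on chromosome 4 it was 1 of 27 (3.70%, against 11.1%), and on chromosome 2 it was 1 of 24 (4.17%, against 1.88%). Exome coverage of single genes was not analysed here, so a gene without a call may match the reference or may not have been read.

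Members with neighbours within 1 Mb formed 6 clusters of 3 or more genes, which held 46 of the 88 members and 357 calls. The positions below are as deposited. At 2802 single-base calls within RefSeq promoter windows of GRCm38.p6 the deposited reference base was equal to the window's base in 2802. The 2 largest clusters, on chromosomes 7 and 13, held 291 of the member calls between them.

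The first cluster on chromosome 7, from 24085464 to 24586701, held 10 members (Zfp180 to Zfp575) and 166 calls, of which 88 were missense. Of these calls 147 were homozygous (88.6%, interval 82.7 to 93.0), as were 30 of 30 calls in the 9 other genes of the span. Zfp112 had 29 of 29 calls homozygous, Zfp108 had 22 of 22, Zfp109 had 17 of 17 and Zfp111 had 16 of 16. Zfp93, the member with the most calls, had 30 of 32. Zfp180 at the edge of the cluster was the exception, with 7 of 23.

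The second cluster on chromosome 7, from 29771379 to 30078566, went the other way. Its 9 members (Zfp84 to Zfp566) held 31 calls, of which 1 was homozygous (3.23%, 0.0816 to 16.7) and 12 were missense. Zfp940 had the most, with 6 heterozygous calls. Zfp30 and Zfp790 had only missense calls, 4 and 3. In the span 1 other gene had 4 calls, 2 of them homozygous.

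The cluster on chromosome 13, from 67040842 to 67826053, held 16 members and 125 calls, of which 67 were missense. RefSeq lists several of these genes under Rslcan synonyms, which name candidates of the regulator of sex limitation locus. Homozygous calls made up 81 of 125 (64.8%, 55.8 to 73.1), and 51 of 59 (86.4%) in 5 other genes of the span. The mix changed from gene to gene. Zfp457 had 26 of 28 calls homozygous, Zfp458 14 of 19, Zfp708 7 of 8 and Zfp85 6 of 6. Other genes of the cluster had mainly heterozygous calls, such as Zfp748 with 2 of 12 homozygous, Zfp712 with 2 of 7, and Zfp493, Zfp455 and Zfp595 with 0 of 5, 4 and 3.

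The 3 remaining clusters were small. On chromosome 6, Zfp786, Zfp398, Zfp956, Zfp467 and Zfp775 had 17 calls, none homozygous, and 23 calls of other genes in the span were also all heterozygous. On chromosome 5, Zfp113, Zfp157 and Zfp68 had 4 calls each, with 6 of the 12 homozygous, against 5 of 38 calls (13.2%) in other genes of the span. On chromosome X, Zfp185, Zfp275 and Zfp92 had 6 calls, all homozygous, and Zfp185 had 4 of them, all missense. That span held no coding call of other genes. Over the whole of chromosome X, 33 of 116 calls in other genes (28.4%) were homozygous.

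**Figure D3:**
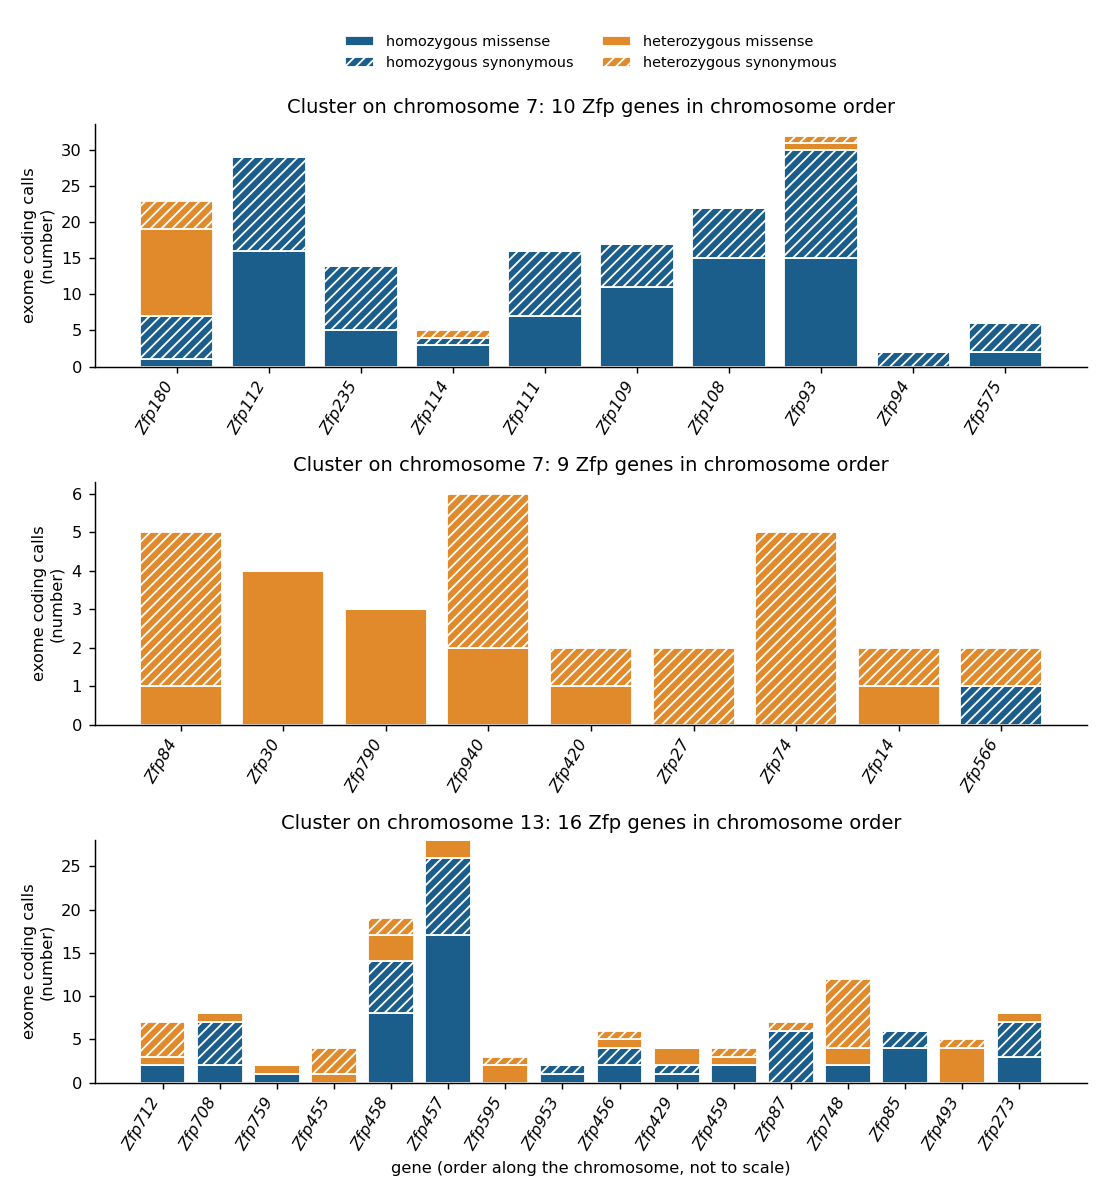
Coding exome calls per gene (y axis, number) in the 3 largest Zfp clusters, with genes in chromosome order on the x axis; blue is homozygous, orange heterozygous, plain missense and hatched synonymous. In the top panel 147 of 166 calls are homozygous, in the middle panel 1 of 31, and in the bottom panel 81 of 125.

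The 42 members outside clusters held 186 calls, of which 96 were homozygous (51.6%). Each of the 42, of which 29 had 2 or more calls, showed 1 genotype throughout. Zfp619 and Zfp658 on chromosome 7 had 18 of 18 and 14 of 14 calls homozygous, with 8 and 10 of them missense, while Zfp607 on the same chromosome had 11 heterozygous calls. Zfp599 on chromosome 9 was homozygous at 9 of 9 calls, Zfp791 on chromosome 8 at 8 of 8, and Zfp365 on chromosome 10 at 8 of 8. Zfp39, whose 18 calls on chromosome 11 were all heterozygous, had the most missense calls of these genes. RNA depth ranged as widely: the median over a gene's calls was 97 reads in Zfp609, 55 in Zfp830 and 40.5 in Zfp365, but 9 in Zfp39, 4.5 in Zfp658 and 0 in Zfp619, Zfp791 and Zfp366.

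Over all members 337 of 543 calls were homozygous (62.1%, interval 57.8 to 66.2), against a background of 36.7% in all other genes. Missense calls (62.5%, 56.4 to 68.3) and synonymous calls (61.7%, 55.6 to 67.5) were alike in this. Other genes, weighted to the chromosomes of the Zfp calls, were homozygous at 51.0%. Without chromosome 7 the member share was 51.5%, and that of all other genes was 32.8%. All 23 Zfp calls on chromosome 8 were homozygous, as were 84.9% of calls in other genes there, and all 36 on chromosome 11 were heterozygous, where 7.76% of other calls were homozygous. Among chromosomes with 10 or more Zfp calls, the Zfp genes stood farthest from the rest on chromosomes 5, 6, 9, 10 and 17. Homozygous shares in Zfp and other genes were 42.9% and 13.1% on chromosome 5 and 5.56% and 43.8% on chromosome 6. On chromosome 10 they were 80% and 39.5%. All 14 calls on chromosome 9 were homozygous, against 30.2% in other genes, and none of 15 on chromosome 17, all in Zfp318, against 30.4%. Of 540 Zfp calls with at least 5 calls of other genes within 1 Mb, 433 (80.2%) had the zygosity of the majority of those neighbours. The homozygous share of the neighbours was 51.6% on average. The same count was not made for calls of other genes, so the 80.2% has no background beside it.

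**Figure D4:**
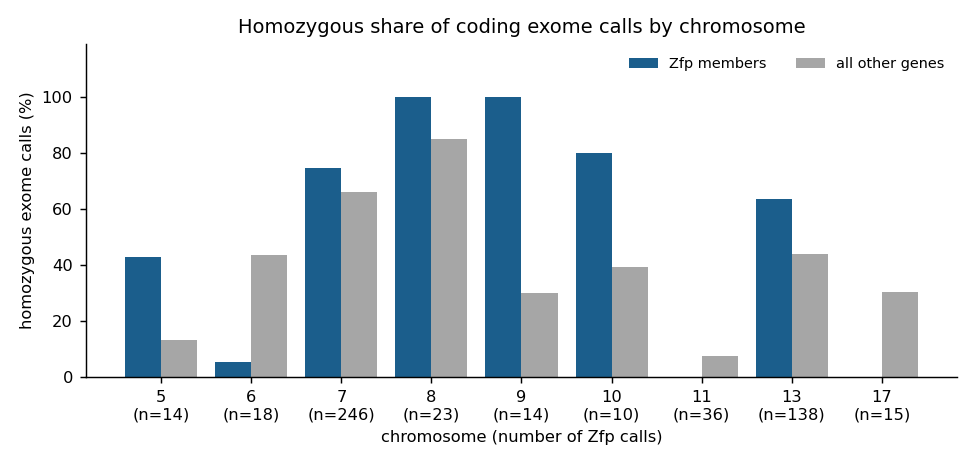
Homozygous share of coding exome calls (y axis, percent) by chromosome, for the 9 chromosomes with 10 or more Zfp calls; blue bars are Zfp members, with n the number of their calls, and grey bars are all other genes. Chromosome 7 stands at 74.8% against 66.0% and chromosome 13 at 63.8% against 44.0%.

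Of the members, 31 were homozygous throughout, 39 heterozygous throughout and 18 mixed. All 18 mixed members lay in clusters: with 5 or more calls, 11 of 23 clustered members were mixed and 0 of 13 outside clusters. Among genes with 5 or more calls, 11 of 36 members (30.6%) and 163 of 1247 other genes (13.1%) were mixed. Members of these families resemble one another, and reads of 1 copy may be placed on another, so genotypes in the clusters are uncertain; this was not tested. Within clusters, 7 pairs of members carried the same base change at the same coding position, and 4 pairs carried opposite changes. No background was counted for such pairs, and the genes were not aligned. At coding position 531 the residue was Pro177 in Zfp112 and Ile177 in Zfp180. At position 1140 it was Leu380 in Zfp108 and Cys380 in Zfp93. In Zfp457 p.Asn40His and in Zfp712 and Zfp493 p.His40Asn were called, at coding position 118. Zfp457 and Zfp712 also shared p.Asp28Asn, Zfp457 and Zfp708 shared p.Glu161Gly, and Zfp108 and Zfp180 shared p.Met61Thr.

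Calls that would cut a protein short or alter a splice site numbered 7, and most had a second call beside them. No background of such calls over all other genes was counted. The exome listed 4 frameshifts, all homozygous, as a pair in Zfp712 and a pair in Zfp457. In each gene the pair consisted of 2 inserted and 2 deleted bases, at positions 2 bases apart in Zfp712 and 3 bases apart in Zfp457, so that the net change in length was 0. RNA depth was 1 read in Zfp712 and 0 in Zfp457. The stop call in Zfp112, at residue 183 of 879, was homozygous in exome and RNA with 4 RNA reads. A second homozygous call, p.Gln183Arg, changes the next base of that codon. Read together, the 2 changes give a codon starting with TG, which is a stop or a tryptophan codon according to the third base. That base is not analysed here. The stop call of Zfp287 was heterozygous in exome and RNA at 4 reads, at residue 225 of a transcript annotated with 274 residues. The call p.Val231Val was annotated on the same transcript, and the other coding calls of this gene on a transcript of 759. Zfp180 carried a homozygous splice donor call with 15 RNA reads and no RNA genotype.

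Calls that share a codon were not limited to Zfp112. In 14 codons of 11 members 2 coding calls fell together, making up 28 of 543 calls (5.16%, 3.45 to 7.37), against 3.49% (3.24 to 3.75) in other genes. In 9 of these codons the table lists 1 call as missense and the other as synonymous, as at residue 217 of Zfp235 (p.Cys217Ser and p.Cys217Cys, both homozygous). Both calls were homozygous in 8 codons. The deposited effects treat each base change alone.

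In-frame changes of length numbered 10, of which 8 were homozygous and 8 lay in the 2 largest clusters. Those clusters also held 166 and 125 of the 543 missense and synonymous calls, 88.6% and 64.8% of them homozygous. No background of in-frame calls over all other genes was counted. Besides the finger-length pair, 5 were of 3 bases, 2 of 6 and 1 of 12. The 6-base deletions lay in Zfp108 and Zfp93, at residues 264 and 268. The 12-base insertion lay in Zfp384 at residue 506 of 584, homozygous in exome and RNA with 17 RNA reads. Where the RNA carried a genotype (7 of 10), it was equal to that of the exome. The most RNA reads were at a heterozygous 3-base insertion in Zfp609 (48 reads) and a homozygous one in Zfp111 (38 reads).

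RNA reads reached most Zfp positions, but thinly. Read number at a position is not an expression level per length. Of 543 exome calls, 436 (80.3%, interval 76.7 to 83.6) had at least 1 RNA read, against 47.4% (46.7 to 48.1) in other genes. At 20 or more reads the order turned, with 126 calls (23.2%, 19.7 to 27.0) against a background of 28.7%. The median was 7 reads in Zfp genes, with a highest value of 110, and 0 in other genes, with a highest value of 5960. Thus 57.1% of Zfp calls had 1 to 19 reads, against 18.7% of other calls. Olfactory receptor genes, silent in most tissues, had a read at 4 of 1021 calls and never more than 2. In 35 members at least 1 call had 20 or more reads, in 42 the deepest call had 1 to 19, and in 11 every call had 0. The last included Zfp42 (Rex1, a marker of pluripotent cells), with 4 homozygous calls, 2 of them missense, and 0 reads at each.

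The 10 missense calls with the most RNA reads lay in 4 genes. Zfp462 p.Val1823Ala led with 110 reads and was heterozygous in exome and RNA. Zfp830 p.Arg189Lys (65 reads) was also heterozygous in both, and Zfp277 p.Thr177Ala (60 reads) homozygous in both. The other 7 lay in Zfp180, at 55 to 91 reads.

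RNA genotypes were compared with exome genotypes at the 126 calls with 20 or more reads. They were equal in 105 (83.3%, interval 75.7 to 89.4), against a background of 80% (78.9 to 81.0) in other genes. Homozygous exome calls were homozygous in RNA at 59 of 63 Zfp positions (93.7%, 84.5 to 98.2) and at 95.1% in other genes. Heterozygous ones were heterozygous in RNA at 46 of 63 (73.0%, 60.3 to 83.4) and at 71.9% in other genes. The kind of difference was not the same. Of heterozygous exome calls, 12 of 63 Zfp positions (19.0%) were homozygous in RNA, against 4.12% in other genes, and 5 (7.94%) had no RNA genotype, against 24.0%.

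Zfp180 alone accounted for 16 of the 21 differences. Its 23 calls had 22 to 91 RNA reads with a median of 55. The 7 homozygous exome calls were homozygous in RNA. Of the 16 heterozygous exome calls, 12 were homozygous in RNA, 4 had no RNA genotype and 0 were heterozygous. The calls without an RNA genotype were p.Arg225Cys (91 reads), p.Arg272His (28), p.Val280Met (28) and p.Arg375Lys (55). They stood next to calls with one: p.Arg225Arg, in the codon of p.Arg225Cys, was homozygous in RNA at 89 reads, and p.Ser279Asn, beside p.Val280Met, at 25 reads. Why the libraries differ in Zfp180 was not tested.

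Without Zfp180 the genotypes were equal at 98 of 103 positions (95.1%, 89.0 to 98.4), and at 46 of 47 heterozygous ones (97.9%, 88.7 to 99.9). Zfp180 was left out because of its differences, so a rise was fixed in advance. No gene was left out of the background in the same way. The other 5 differences lay in 4 genes. Zfp868 had no RNA genotype at 2 homozygous calls, p.Val79Ile (50 reads) and p.Tyr41Tyr (39 reads), and the same held for p.Gly78Gly of Zfp87 (21 reads). Zfp395 p.Ser410Pro was heterozygous in the exome with no RNA genotype at 28 reads. In Zfp68, p.Gly341Gly was homozygous in the exome and heterozygous in RNA at 99 reads. In 30 of the 35 genes with such depth, all genotypes were equal. Zfp111, within the homozygous cluster of chromosome 7, was homozygous in both libraries at 15 of 15 positions with 20 or more reads.

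**Figure D5:**
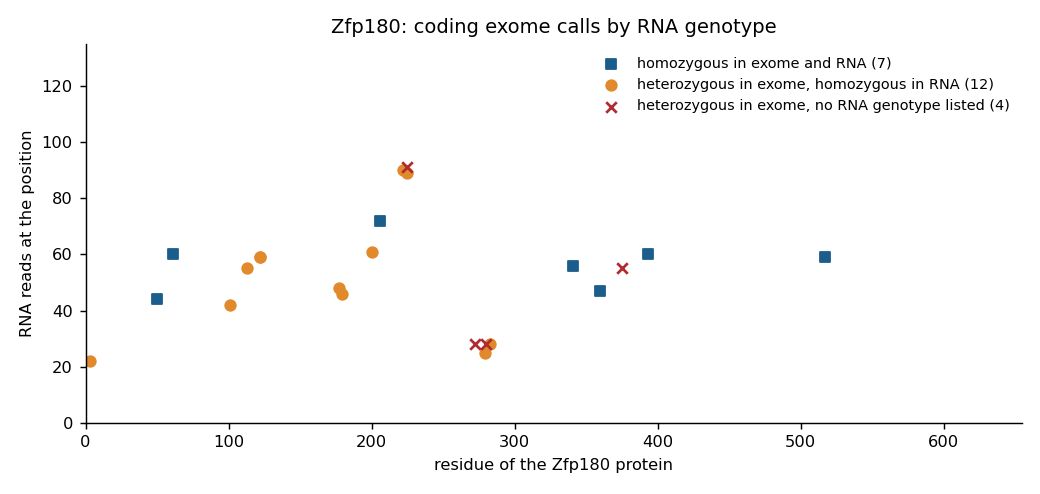
The 23 coding exome calls of Zfp180 by residue (x axis) and number of RNA reads at the position (y axis); squares are homozygous in exome and RNA (7), circles heterozygous in the exome and homozygous in RNA (12), and crosses heterozygous in the exome with no RNA genotype listed (4). No call is heterozygous in both, at depths from 22 to 91 reads.

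Among 31 Zfp genes listed for a known role, 6 (19.4%) were members, against 23.7% of all annotated Zfp genes, and 5 had a missense call. Zfp809, which recruits Trim28 to proviral DNA in stem cells, carried 1 homozygous missense call, p.Met387Ile, also homozygous in RNA at 27 reads. Zfp708 had 3 missense and 5 synonymous calls, 7 of 8 homozygous, with at most 12 reads. Zfp318 had 10 missense and 5 synonymous calls, all heterozygous, with at most 34 reads. Zfp462 and Zfp42 are described above, and Zfp64 had 2 synonymous calls. No coding exome call was listed for the other 25, among them Zfp57 and Zfp445, which guard imprinted methylation, and Zfp750, a regulator of epidermal differentiation.

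Of 25 listed symbols of partners through which KRAB zinc finger proteins silence chromatin, 6 (24.0%) had a coding exome call. The background was 18.2% of annotated protein-coding genes outside the Zfp names. The 6 genes held 4 missense and 10 synonymous calls, and no frameshift or stop. The missense calls were 1 each in Setdb1, the histone methyltransferase of the complex, Pphln1, Morc3 and Atrx. Dnmt1, the maintenance DNA methyltransferase, had 7 synonymous calls, all homozygous, and Atf7ip had 2. Trim28 itself had no coding exome call. Fam208a and Tasor, both listed and both without a coding exome call, are 2 symbols of 1 gene, so the list held fewer than 25 genes.

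Markers of the labelled cell type could be read only where the table lists a variant. Among 16 keratinocyte genes, 4 had an exonic position: Cdh1, Dsp and Dsg3 were at 0 RNA reads throughout and Itgb4 reached 77. Of the fibroblast or mesenchymal genes, Col1a1, Col1a2 and Thy1 reached 70, 168 and 40 reads, and 3 immune genes were at 0. The 12 remaining keratinocyte genes, keratins included, had no position to read.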

How the data were processed

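A223 exome DNA and polyA RNA were each read in 1 library. Per the submitters' processing notes the authors used BWA and GATK, whose versions, like the effect annotator and the genome build, are not given in the sources used here. The deposited table of 564674 variants gives, per the file headers, 1 called genotype per library, and RNA depth as a read count without normalisation. The copies given for the 2 samples were identical, and 1 was used. In 34 rows depth was a list of numbers; none was a coding exome call. Exome depth and allele read numbers were not analysed here, nor was the T cell table.

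Rows listed as missense_variant or synonymous_variant alone, with an exome genotype, were counted with pandas 2.3.3 and SciPy 1.17.1. RNA genotypes were compared at 20 or more reads. Clusters joined members within 1 Mb. No test was run, and the counting was checked on simulated data. The naming rules covered the 10 members with the most missense calls and the member with the most calls per cluster. They also covered the 10 deepest missense calls, missense calls whose RNA genotype differed, truncating calls and members of the role list. Some Zfp180 missense calls under these rules were counted without being named. Other genes were named after their values were seen. Placement of calls in fingers by protein sequence was replaced by the repeat in Zfp457. Members and lists were chosen with earlier results of these data known.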

Additional observations from a re-analysis of the deposited data

Results flagged for a closer look

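Coding positions listed in RNA only lie outside the comparisons above. In Zfp genes there were 108 such calls in 42 genes, 90 of them in members; there is no control library. They made up 16.6% of all coding calls in Zfp genes, against 5.92% in other genes. These shares are not on like terms, since an RNA-only call needs RNA reads. Of coding exome calls, 52.6% had 0 RNA reads in other genes, against 19.7% in Zfp genes. Of the 108, 40 were missense, 63 were homozygous in RNA and 53 had 20 or more reads (814 of 1251 in other genes). Zfp748 had 14, at 7 to 34 reads, Zfp111 had 9, at 28 to 42 reads, and Zfp957, which is no member, had 9, at 7 to 41 reads. Zfp131 reached the highest depth, 144 reads. Exome coverage of these positions was not analysed here.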

How the results depend on the processing

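The ratio of missense to synonymous calls stayed within its counting interval under the 6 alternatives that changed its value (0.95 to 0.99); counting single-base changes only, or each position once, left the calls as they were. The number of clusters was 6 at gaps of 0.5 and 2 Mb, but they held 52 members at 2 Mb, against 46 at 1 Mb and at 0.5 Mb. Contrasts between members in and outside clusters were made at 1 Mb only. The homozygous share kept within its interval under 4 of 5, and was 51.5% without chromosome 7. RNA agreement, 83.3%, was 64.3% at 50 or more reads, where 28 calls are left, and 69.6% for missense calls alone. It was 93.1% without chromosome 7 and 95.1% without Zfp180. With positions lacking an RNA genotype left out it was 89.0%, against 96.5% in other genes. Leaving out Zfp180 and counting 1 call per codon were chosen after seeing the data. Alternatives by finger number and finger spacing were not run, since no protein sequence was used. No paired analysis was possible because exome and RNA are 1 library each. Depth limits the RNA comparison to 126 of 543 calls.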
